A study of Mus musculus with 6 samples.

Results

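The genes described here encode the molecular chaperones of the cytosol and the mitochondria, their partner proteins and the heat shock factors. They were found by gene symbol in the table of read counts: every name that starts with Hspa, Hsp90, Hspb, Hspd, Hspe, Hsph, Dnaja, Dnajb or Dnajc, every name in the number series of Cct2 to Cct8, Bag1 to Bag6 and Hsf1 to Hsf5, and Tcp1, Stip1, Ahsa1, Chordc1, Fkbp4, Cdc37, Ptges3, Hspbp1 and Zfand2a. The 7 chaperone genes of the endoplasmic reticulum Hspa5, Hsp90b1, Hspa13, Dnajb9, Dnajb11, Dnajc3 and Dnajc10 were left out. The rule took 96 of the 22116 named genes. It uses names and no measured value, but the group was proposed with results of this comparison known, so the changes below are a description of the members and are not evidence that chaperones as a class responded. Some names the rule brings in have other roles, such as the J proteins Dnajb12, Dnajb14 and Dnajc1, known from the membrane of the endoplasmic reticulum, and Hsf2bp, a protein of meiosis that binds HSF2.

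The study treated 4T1 cells, a mouse mammary carcinoma line used as a model of triple–negative breast cancer, to ask how inhibition of the histone demethylase KDM3B changes tumor cells. One group received DMSO, the vehicle, and the other 10 µM P3FI-90, the study's KDM3B inhibitor, and both were harvested after 24 h. mRNA was sequenced from 3 libraries per group, and neither group carried a genetic change that the labels name. The labels do not say whether the 3 libraries came from separate cultures, so every test below measures only the spread between these libraries, which may be technical.

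Chaperones bind unfolded stretches of other proteins and use ATP to release them for folding. HSP70 proteins receive their clients from J proteins and are reset by nucleotide exchange factors, HSP90 finishes the folding of kinases and steroid receptors with a set of co-chaperones, and the ring-shaped TRiC encloses actin and tubulin. When unfolded protein accumulates in the cytosol, HSP70 and HSP90 release heat shock factor 1 (HSF1), which then binds heat shock elements, repeats of GAA and TTC, and drives the genes of many of these same chaperones.

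The libraries held 31327094 to 37395732 counts on named genes, and the chaperone genes took 2.44, 2.49 and 2.44 percent of them in the DMSO libraries and 1.56, 1.57 and 1.57 percent in the P3FI-90 libraries. Values are given as normalized counts: each library was brought to a common size, the mean of the 6, with edgeR's trimmed mean of M values (TMM). A gene is called higher or lower where the adjusted p of edgeR's quasi-likelihood test, corrected over the 12288 genes tested, was under 0.05. Of the 96 chaperone genes 82 passed the filter on low counts, 9 more had counts too low for it and 5 (Dnajb3, Dnajb8, Dnajc5b, Dnajc5g and Hsf3) had none in any library. The median coefficient of variation of the 82 between libraries of a group was 4.13% in DMSO and 3.80% in P3FI-90. The epithelial markers Krt8, Krt18, Krt19, Epcam, Cdh1 and Cldn7, which fit the label of the line, summed to between 110325 and 115967 normalized counts in the DMSO libraries and to between 56042 and 58704 in the P3FI-90 libraries. The 5 leukocyte and 3 endothelial markers summed to no more than 29.4 normalized counts in any library, with Adgre1 at 0. The 4 fibroblast markers summed to between 910.4 and 1407, nearly all of it Pdgfra, with Lum at 0. In bulk RNA, fewer cells of a kind and less RNA per cell cannot be told apart.

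P3FI-90 treatment lowered 43 of the 82 tested chaperone genes and raised 21, and 18 were not called. The share called lower was 52.4%, beside 39.4% of all genes tested, and the share called higher was 25.6%, beside 39.9%. Of all genes tested 79.3% were called in either direction. In 43 chaperone genes every treated library lay below every DMSO library, beside 40.2% of all genes, and in 21 above, beside 41%, so that the groups overlapped in 18, where 81.2% of all genes showed no overlap. A fall of more than 1 on the log2 scale was called for 18 chaperone genes, beside 10.6% of all genes, and a rise of more than 1 for Zfand2a and Hsf2bp, beside 12.7%. The median log2 fold change of the chaperone genes was -0.20 and that of all genes 0.01. The share called lower differed with level. Of the 18 chaperone genes that averaged 10000 normalized counts or more 16 were called lower, where 69.4% of the 585 genes tested at that level were. Of the 39 between 1000 and 10000 normalized counts 19 were called lower (48.7%, beside 42.0%), and of the 25 that averaged under 1000 normalized counts 8 were called lower (32.0%), where 32.9% of genes at that level were. Summed over all members, normalized counts fell from 927663 ± 11820.0 to 510029 ± 2514 (SD, n = 3 per group), a ratio of 0.55. The choice of scale matters for the small changes: scaling by total counts instead of TMM raised the log2 fold changes, and the median of all genes, by 0.21, and 30 chaperone genes were then called higher and 38 lower, with the falls of Cct7, Hspb8, Dnajc2, Dnajc11 and Dnajc14 turned in sign and no longer called.

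**Figure D1:**
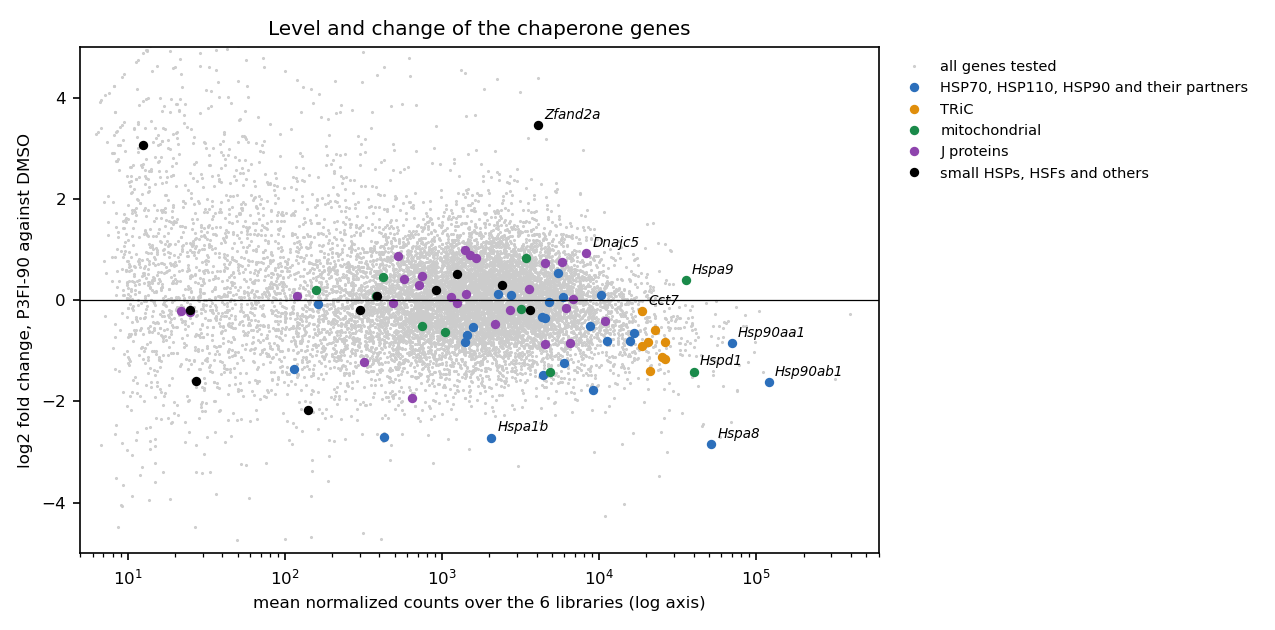
Each point is a gene: the horizontal axis is its mean normalized count over the 6 libraries, on a log axis, and the vertical axis its log2 fold change from DMSO to P3FI-90, with all genes tested in grey, 81 chaperone genes in the colours of their groups and 110 genes outside the axes. Hspa8, Hsp90ab1, Hsp90aa1, Hspd1 and the subunits of TRiC lie at the right below the line of no change, and Hspa9 lies above it. Of the chaperone genes, Zfand2a at 3.46 and Hsf2bp at 3.07 lie highest.

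The largest falls were those of cytosolic HSP70 genes. Hspa8 (ENSMUSG00000015656) encodes HSC70, the HSP70 that cells make without stress, and it had 91776, 91665 and 89342 normalized counts in the DMSO libraries and 12688, 12958 and 12251 in the P3FI-90 libraries. Every treated library thus held less than the lowest DMSO library by a wide margin, a log2 fold change of -2.85 (SE 0.029), or 7.20-fold lower. Hspa1b and Hspa1a are the neighbouring, nearly identical genes of the inducible HSP70, which heat and unfolded protein switch on. Hspa1b had 3916, 3248 and 3552 normalized counts in DMSO and 506, 575 and 549.6 in P3FI-90, a change of -2.72 (SE 0.075). Hspa1a had 809, 656 and 744 in DMSO and 121, 118 and 103 in P3FI-90, a change of -2.69 (SE 0.12). So the inducible pair and the constitutive gene moved by like amounts, and none of the 3 overlapped between groups.

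The values of the pair cannot be fully told apart, because 59.2% of the 50-base windows of Hspa1a and 62.9% of those of Hspa1b occur in another gene, mostly in each other. Summed, the pair had 4725, 3905 and 4296 normalized counts in DMSO and 627, 693 and 652 in P3FI-90, 6.55-fold lower. Hspa8 shares 32.3% of its windows, mainly with predicted genes such as Gm15459. Among the other members, chosen for mention after their values were seen, Hspa2 fell from 163 ± 12.3 to 63.9 ± 19.1, Hspa14, which sits at the ribosome, fell by 0.35 on the log2 scale, and Hspa1l, at 167 ± 35.1 in DMSO and 159 ± 16.5 in P3FI-90 normalized counts, was not called. That makes 5 of 6 cytosolic HSP70 genes lower (83.3%, beside 39.4% of all genes tested). Together they fell 5.75-fold, and the share of Hspa8 in their sum went from 90.3 ± 0.436 to 72.2 ± 0.891 percent.

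The sequence before the start of the inducible gene is shown because heat shock elements define this response. Upstream windows were taken from RefSeq's promoter table for GRCm38.p6, 250 bases before to 50 after each start, which held a window for 78 of the 96 members by symbol and for none of Hspa8, Hsp90aa1, Hsp90ab1, Hspa9 and Hsf1. The files give no coordinates, and the submitters' processing notes name GRCm39, so these positions are of the older build. Bases -150 to -1 before the start of Hspa1b, at chr17:34959239-34959388 on the minus strand and outside any exon of GENCODE M21, are printed 5′ to 3′ with the pair of inverted units GAANNTTC in capitals.
Hspa1b: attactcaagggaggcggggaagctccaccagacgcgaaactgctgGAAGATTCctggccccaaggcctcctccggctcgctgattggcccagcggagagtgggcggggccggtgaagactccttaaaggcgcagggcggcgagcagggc
The window of Hspa1a had the same base as that of Hspa1b at 247 of the 250 upstream positions and held the same letters GAAGATTC at the same place, 104 bases before the start.

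Heat shock elements were searched on both strands as 2 inverted units (GAANNTTC or TTCNNGAA) and as 3, with a further unit GAA or TTC after 2 more bases, where every match of 3 also counts as matches of 2. Of the 65 tested chaperone genes with a window 21 held 2 units (32.3%), beside 13.7% of the 9592 tested genes with a window and 15.1% of all 32851 windows. Among the 21, 13 were called lower, 3 higher (Dnaja4, Dnajc27 and Zfand2a) and 5 were not called. Of all 82 tested chaperone genes 52.4% were called lower, and of all genes tested 39.4%. Whether the elements go with the direction of change was not tested. Windows with 3 units belonged to Chordc1, Dnajb6, Hspd1, Hspe1 and Hsph1 (7.69% of the 65, beside 0.511% of tested genes and 0.603% of windows), of which Hspd1, Hspe1 and Hsph1 were lower and the other 2 not called. These counts hold repeated sequence. The matches of Hspd1 and Hspe1 are the same stretch read on opposite strands, and Hspa1a and Hspa1b share nearly all of their upstream bases. A match describes the letters and is not a measured binding site. The ATF4 element TTGCATCA or TGATGCAA was in no window of the 65 genes (0.709% of tested genes). The E-box CACGTG was in those of 7 genes (10.8%, beside 11.6%), and CCAAT or ATTGG in those of 25 (38.5%, beside 43.5%).

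The HSP90 genes of the cytosol both fell, the constitutive gene more than the inducible one. Hsp90ab1 (ENSMUSG00000023944), the constitutive HSP90 beta, had 180143, 182832 and 179718 normalized counts in DMSO and 58055, 59468 and 58442 in P3FI-90, a change of -1.62 (SE 0.021). Hsp90aa1, the inducible HSP90 alpha, had 86913, 94461 and 88338 in DMSO and 49971, 49873 and 50032 in P3FI-90, a change of -0.85 (SE 0.030). Neither gene overlapped between groups. The sum of the pair fell 2.49-fold, and Hsp90aa1 made up 32.5, 34.1 and 33.0 percent of it in the DMSO libraries and 46.3, 45.6 and 46.1 percent in the P3FI-90 libraries. Per kilobase of transcript Hsp90ab1 was the highest chaperone gene in both groups, at 71785 and then 23276 normalized counts per kb.

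Of the 7 HSP90 co-chaperone genes 5 fell (71.4%, beside 39.4% of all genes tested) and 2 were not called. Total-count scaling gave 5 lower and 2 higher. Fkbp4, the immunophilin FKBP52 of steroid receptor complexes, fell most, from 14387, 14402 and 14015 normalized counts to 4111, 4288 and 4038, a change of -1.78 (SE 0.035). Stip1, or HOP, which hands clients from HSP70 to HSP90 and was the most abundant of these genes, went from 20303, 20248 and 19775 to 11396, 11709 and 11215, a change of -0.81 (SE 0.031). No treated library of either gene reached a DMSO library. Outside the rule for naming, Ahsa1, an activator of the HSP90 ATPase, fell by 1.49 on the log2 scale, Ptges3, the late-acting p23, by 1.24, and Cdc37, the adaptor for kinases, by 0.80, or by 1.23 once a trend with the length and GC content of transcripts was removed. The genes not called were Chordc1, at 4817 ± 27.8 in DMSO and 4709 ± 178 in P3FI-90 normalized counts, and Dnajc7, a J protein that also binds HSP90, at 5741 ± 174 in DMSO and 6038 ± 149.8 in P3FI-90. Chordc1 was called higher at 0.18 with total counts and lower at -0.55 with the length and GC trend removed, so its direction depends on the setting. A further list of 20 partners of HSP90 and HSP70 had 15 lower (75.0%, beside 39.4% of all genes) and 2 higher, or 9 lower and 6 higher with total counts, led by Ruvbl1, an ATPase of the R2TP complex that works with HSP90, at -0.93 (SE 0.047), and Rpap3, another R2TP subunit, at -0.92 (SE 0.063).

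**Figure D2:**
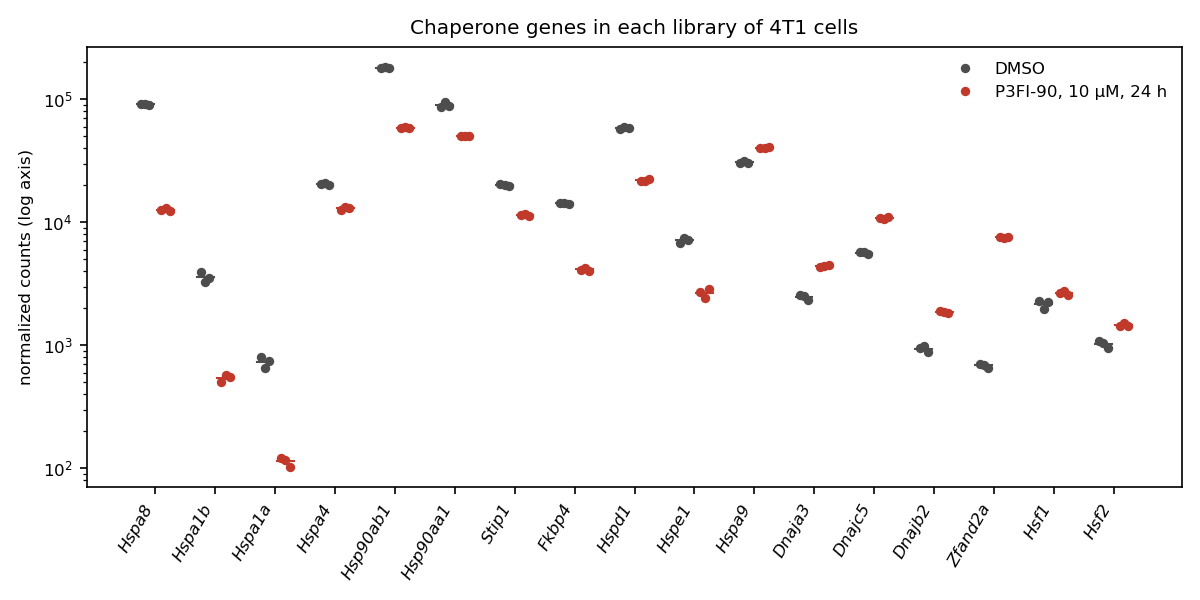
Normalized counts of 17 chaperone genes in each library, on a log axis, with a point per library and a bar at the mean of the 3 libraries of a group (grey DMSO, red P3FI-90). The groups do not overlap for any gene shown, and Hspa8, Hspa1b and Hspa1a show the widest gaps downward and Zfand2a upward.

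The genes that reset HSP70 changed less. Of the 10 HSP110 and nucleotide exchange factor genes 6 fell, 2 rose and 2 were not called. Among all genes tested 39.4% were called lower and 39.9% higher. Total-count scaling gave 6 lower and 4 higher of the 10, and none moved by more than 1 on the log2 scale. Hspa4, an HSP110 that serves as exchange factor for HSP70 and the most abundant of the 10, had 20443, 20719.8 and 20194 normalized counts in DMSO and 12647, 13273 and 13060.2 in P3FI-90, a change of -0.65 (SE 0.031). Hspbp1, which releases nucleotide from HSP70, changed most, from 1779 ± 144 to 1010.1 ± 70.5, or -0.82 (SE 0.071) on the log2 scale. Both lay clear of the DMSO libraries in every treated library. Chosen after their values were seen, Hsph1, or HSP105, fell by 0.51 on the log2 scale, and its close relative Hspa4l rose by 0.53 (SE 0.036), although the length and GC correction took Hspa4l to -0.050. The BAG family, exchange factors named for their HSP70-binding domain, had Bag1 at -0.33 (-0.17 with that correction), Bag2 at -0.69 and Bag3 at -0.53, all called lower, and Bag6 called higher at 0.11, a call that was lost with upper-quartile scaling, without DMSO replicate 1, without DMSO replicate 2, without P3FI-90 replicate 2 and without P3FI-90 replicate 3. Bag4 and Bag5, at 0.10 and 0.13, were not called but each was under 8 of the 15 alternatives, and the length and GC correction turned Bag4 to -0.21.

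All 8 tested subunit genes of TRiC, the cytosolic chaperonin, were called lower, and they fell by unequal amounts. Of all genes tested 39.4% were called lower. Of the 585 genes that averaged 10000 normalized counts or more, as all 8 did, 69.4% were. Cct2 fell most, from 30689, 31100.1 and 30049 normalized counts in DMSO to 11434, 11628 and 11684 in P3FI-90, a change of -1.40 (SE 0.029). Cct7 fell least, from 19991, 20478 and 19946 to 17414, 17276 and 17480.2, a change of -0.21 (SE 0.028), which scaling by total counts moved to 0.0024 and out of the call. Between them lay Cct5 at -1.17, Cct6a at -1.12, Cct8 at -0.91, Tcp1 at -0.83, Cct3 at -0.82 and Cct4 at -0.59 (SE 0.027 to 0.035 over the 6), where Tcp1 and Cct3 did not differ beyond their SE. Cct6b, the testis form, and Cct8l1 had no more than 21 counts in any library and did not pass the filter.

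**Figure D3:**
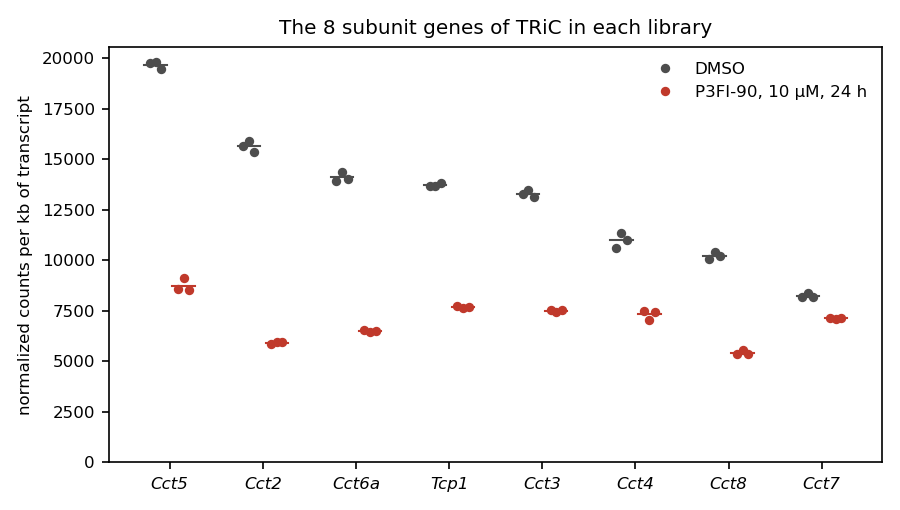
Normalized counts per kilobase of transcript of the 8 TRiC subunit genes in each library, ordered by their DMSO mean, with a point per library and a bar at the group mean (grey DMSO, red P3FI-90). The DMSO values run from a mean of 19674 per kb for Cct5 down to 8250.1 for Cct7, while the P3FI-90 values lie in a narrower band between 5353 and 9112.

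TRiC takes the products of these genes in equal number, so their levels were compared per kilobase of transcript, which for Cct6a is a transcript annotated without a coding sequence. In the DMSO libraries the highest subunit gene, Cct5, stood 2.41, 2.36 and 2.38-fold above the lowest, Cct7. In the P3FI-90 libraries the ratio of highest to lowest was 1.61, 1.64 and 1.59, with Cct5 still highest and Cct8 lowest. The genes highest per kb in DMSO, Cct5, Cct2 and Cct6a, were those that fell by more than 1 on the log2 scale, so the spread between subunits narrowed by the same measurements that gave the falls. In all, the 8 genes went from 233364 ± 2857 to 125931 ± 278 normalized counts.

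Most genes listed for the TRiC pathway outside the group were called lower as well, where 39.4% of all genes tested were. All 10 actin and tubulin genes taken as TRiC clients were called lower, with a median of -2.17, led by Tubb4b, a beta tubulin, at -2.84 (SE 0.036) and Tuba1c, an alpha tubulin, at -2.61 (SE 0.032). Of 9 prefoldin and phosducin-like genes, whose products deliver clients to TRiC, 8 were lower and 1 higher, with a median of -0.51, or 5 and 1 with total counts. Pdcl3 had 2813 ± 143 in DMSO and 1664 ± 97.2 in P3FI-90 normalized counts and Pdcl 2271 ± 157 in DMSO and 1346 ± 111 in P3FI-90, the largest changes of that list.

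In the mitochondria the folding chamber and the import chaperone went opposite ways. Hspd1 (ENSMUSG00000025980) encodes HSP60, the barrel that folds imported proteins, and Hspe1 its lid, HSP10. Hspd1 had 56881, 59278 and 58373 normalized counts in DMSO and 21622, 21602 and 22407 in P3FI-90, a change of -1.41 (SE 0.028). Hspe1 had 6765, 7412 and 7201 in DMSO and 2722, 2430.4 and 2872 in P3FI-90, a change of -1.41 (SE 0.055). Exons of the 2 genes overlap on opposite strands, and 18.4% of the 50-base windows of Hspe1 occur in other genes, Hspd1 among them, so that without stranded counting some of their reads cannot be told apart. The 2 falls did not differ beyond their errors, and the ratio of the genes per kb, 2.69, 2.55 and 2.59 in DMSO, was 2.54, 2.84 and 2.49 in P3FI-90.

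Hspd1 and Hspe1 are neighbours on opposite strands, and RefSeq's table holds 2 windows for Hspd1, from different starts. A stretch before the start of Hspe1 is shown because it held the longest run of heat shock units among the members that fell and had a window. These are bases -95 to -66 of Hspe1, at chr1:55088053-55088082 of GRCm38.p6 on the plus strand, with 4 alternating heat shock units in capitals. In GENCODE M21 the stretch lies upstream of Hspe1 and of the basic Hspd1 transcript, and inside the first exon of a second Hspd1 transcript. It lies downstream of a further Hspd1 exon, at chr1:55088145-55088243, and of the other RefSeq start of Hspd1.
Hspd1-Hspe1: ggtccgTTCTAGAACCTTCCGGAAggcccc
The same letters lie in 1 of the 2 windows of Hspd1, read on the opposite strand.

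Hspa9, or mortalin (ENSMUSG00000024359), the HSP70 that pulls proteins into the mitochondrion, rose. It had 30265, 31412 and 30384 normalized counts in DMSO and 40399, 40187 and 40885 in P3FI-90, a change of 0.40 (SE 0.027), or 0.23 with the length and GC trend removed, and every treated library lay above every DMSO library. The ratio of Hspd1 to Hspa9 per kb was 2.37, 2.37 and 2.42 in the DMSO libraries and 0.673, 0.676 and 0.69 in the P3FI-90 libraries, so that HSP60 transcripts outnumbered those of mortalin before treatment and not after it. With 3 libraries against 3 the smallest p of a two-sided exact permutation test on such a ratio is 0.1. Dnaja3, or TID1, the J protein partner of mortalin, also rose, from 2542, 2507 and 2339 to 4327, 4430.1 and 4489.6, a change of 0.84 (SE 0.045). Exons of Dnaja3 overlap those of Coro7, on the opposite strand, which went from 862 to 1717 normalized counts, and of Vasn, which was not called; counting by strand is not stated.

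Of the 10 mitochondrial chaperone genes in all, 5 were lower, 3 higher and 2 not called, and with total counts 4 were lower and 4 higher. The shares of all genes tested, on the TMM scale, were 39.4% lower and 39.9% higher. Named after their values were seen, Dnajc15 and Dnajc19, J proteins of the import motor, fell by 0.63 and 0.50 on the log2 scale, Dnajc11 fell by 0.17, and Dnajc4 rose by 0.45. The fall of Dnajc11 was lost when total counts set the scale, and the length and GC correction put Dnajc15 at -1.03 and Dnajc4 at 0.72. A list of 13 further mitochondrial chaperones and proteases had 5 higher (38.5%, beside 39.9% of all genes tested) and 3 lower (23.1%, beside 39.4%). With total counts 9 were higher and 3 lower. Lonp1, the Lon protease of the matrix, had the largest rise, 0.81 (SE 0.034), and Htra2, a protease of the space between the membranes, the largest fall, -0.80 (SE 0.052). Chosen after their values were seen, the exchange factors of mortalin, Grpel1 and Grpel2, rose by 0.31 and 0.80, Timm44, which ties mortalin to the import channel, rose by 0.25, and Trap1, the mitochondrial HSP90, fell by 0.36. Pam16, another part of the import motor, was not called.

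The J proteins carry clients to HSP70 and switch on its ATPase. Class A keeps the domains of the bacterial DnaJ, class B lacks its zinc finger, and class C has only the J domain in common. Over the classes outside the mitochondria, 3 class A genes gave 1 rise and 2 falls, 7 tested class B genes 1 rise, 1 fall and 5 not called, and 17 tested class C genes 9 rises, 5 falls and 3 not called. The shares called higher were 33.3% in class A, 14.3% in class B and 52.9% in class C, beside 39.9% of all genes tested. The shares called lower were 66.7%, 14.3% and 29.4%, beside 39.4%. The counts depend on the setting. Class B gave 4 rises and 1 fall with total counts and 1 rise and 4 falls with the length and GC trend removed, where Dnajb4, Dnajb6 and Dnajb14 were called lower. Class C gave 9 rises and 3 falls with total counts and 6 rises and 5 falls with the trend removed. The median log2 fold change of class C was 0.23, beside 0.01 for all genes tested, and 0.025 with the trend removed.

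Dnaja2, the most abundant class A gene, fell from 12655, 12861 and 12066 normalized counts to 8986, 9561 and 9703, a change of -0.41 (SE 0.038). Dnaja4 moved the other way, from 1036, 1162 and 963 to 1749, 2002 and 2102, a change of 0.89 (SE 0.079), and its exons overlap those of Wdr61 on the opposite strand, for which no value was used here. In class B the gene that changed most was Dnajb2, or HSJ1, which binds ubiquitin on clients: it had 951, 979 and 885 in DMSO and 1918, 1865 and 1835 in P3FI-90, 2.00-fold higher. Dnajb6, a suppressor of aggregation and the most abundant of class B, had 6698 ± 76.9 in DMSO and 6846 ± 164 in P3FI-90 normalized counts and was not called. Named after its value was seen, Dnajb1, the stress-inducible partner of HSP70, fell by 0.46 on the log2 scale, as did Dnaja1, by 0.85. The best known inducible J protein therefore fell along with inducible HSP70, by a smaller amount.

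Class C was led by Dnajc5, the cysteine string protein of secretory vesicles, with 5768, 5732 and 5512 normalized counts in DMSO and 10932, 10606 and 10969.7 in P3FI-90, a change of 0.93 (SE 0.034). Further rises came from Dnajc25 at 0.87 (SE 0.085), Dnajc1 at 0.83 (SE 0.059) and Dnajc13, or RME-8, of endosomes, at 0.74 (SE 0.041). The length and GC correction lowered Dnajc5 to 0.54, Dnajc1 to 0.48 and Dnajc13 to 0.32, all still called higher. Exons of Dnajc1 overlap those of Mllt10 on the opposite strand, which rose by 0.31. Dnajc22 fell most, from 1032, 966 and 1046 to 258, 241 and 299, a change of -1.93 (SE 0.094). Named after their values were seen, Dnajc9, a chaperone of histones, rose by 0.74 on the log2 scale, the splicing-associated Dnajc8 and Dnajc17 changed by -0.87 and -1.22, and Dnajc2, which works at the ribosome, fell by 0.16, a fall that total-count scaling removed.

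**Figure D4:**
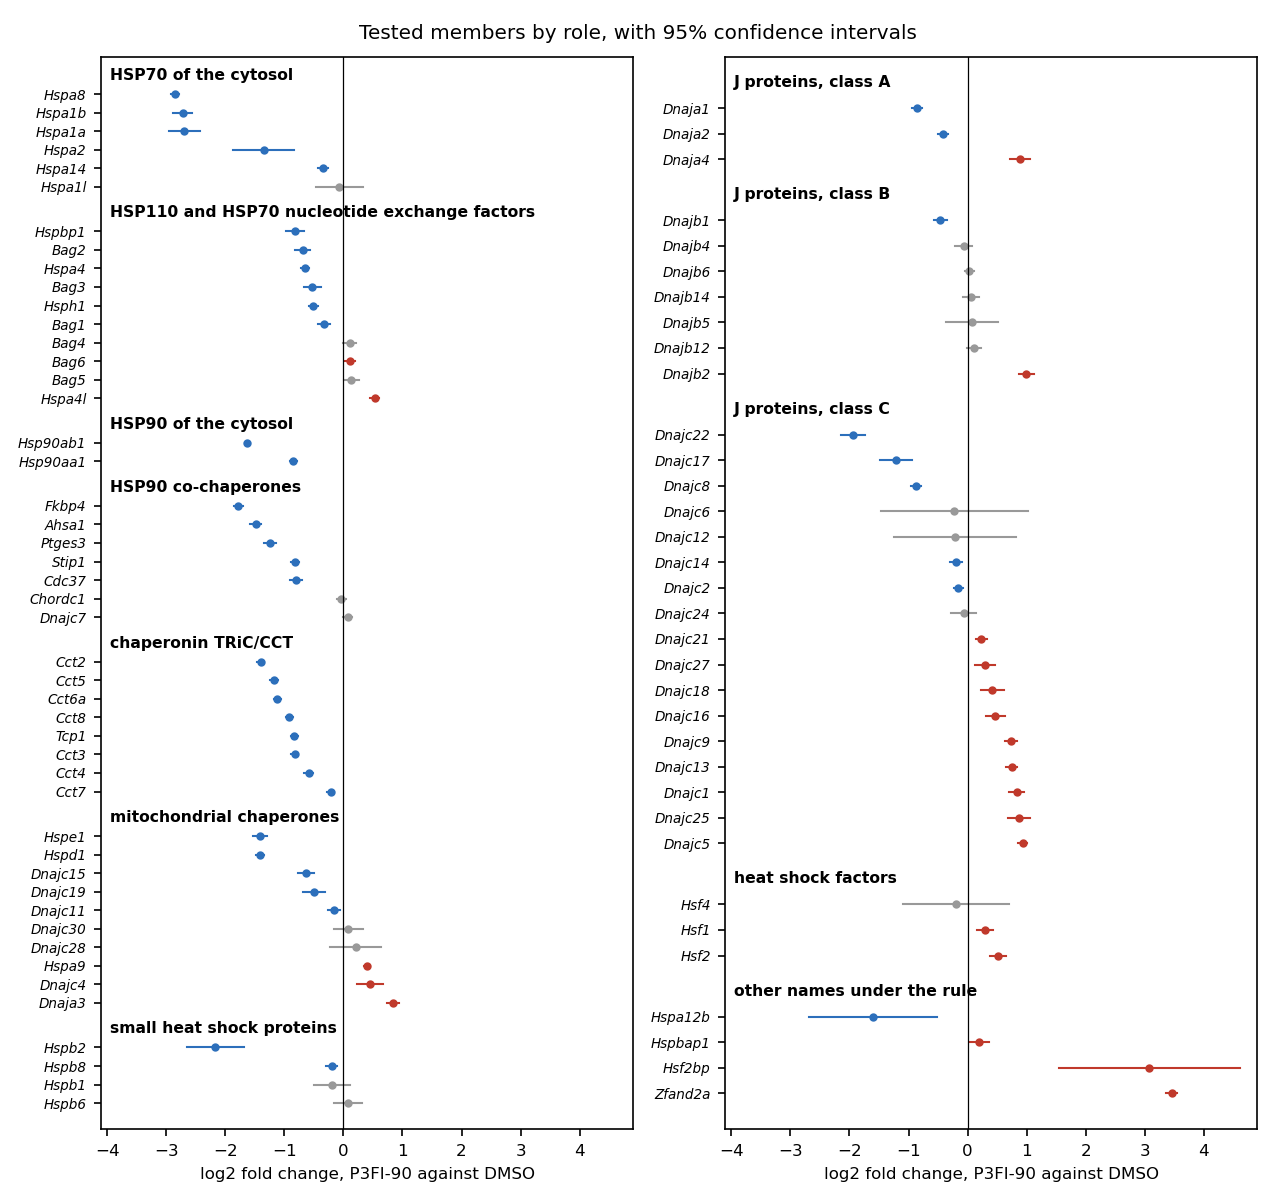
Log2 fold change from DMSO to P3FI-90 of 81 of the 82 tested chaperone genes, grouped by role, as a point with its 95% confidence interval from the fit over all genes (blue called lower, red called higher, grey not called). The cytosolic HSP70, HSP90 and TRiC groups lie left of 0 with no gene called higher. The class C J proteins lie on both sides of 0, and Hsf1 and Hsf2 lie right of it. Zfand2a and Hsf2bp are the only points beyond 3.

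Small heat shock proteins hold unfolded clients without ATP. Of 4 tested 2 were lower and 2 not called, where 39.4% of all genes tested were called lower and 39.9% higher. With total counts 1 of the 4 was lower and 1 higher. Hspb8, the most abundant, which works with Bag3, went from 3858 ± 78.4 to 3362 ± 144 normalized counts, a change of -0.20 (SE 0.043) that scaling by total counts turned to 0.015 and out of the call. Hspb2 fell from 239, 266 and 189 to 59.9, 56.6 and 37.2, a change of -2.17 (SE 0.22). Its exons overlap those of Cryab, alpha B crystallin, on the opposite strand, which fell by 0.79 on the log2 scale, and without stranded counting their reads cannot be told apart. Hspb1, or HSP27, a classic heat shock gene named here after its values were seen, had only 347, 269 and 344 normalized counts in DMSO and 301, 301 and 235 in P3FI-90, and was not called.

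Of the 3 tested heat shock factor genes 2 were called higher (66.7%, beside 39.9% of all genes tested), while more chaperone genes were called lower than higher. Hsf1, the main activator of the heat shock response, had 2307, 1985 and 2240.2 normalized counts in DMSO and 2675, 2760.4 and 2583 in P3FI-90, a change of 0.29 (SE 0.059). Hsf2, which pairs with HSF1, had 1085, 1039 and 952 in DMSO and 1429.8, 1506 and 1437 in P3FI-90, a change of 0.51 (SE 0.063). With the length and GC trend removed Hsf1 stood at 0.41 and Hsf2 at 0.25. Both were called higher with no overlap between groups. Hsf4 lay near 25 normalized counts in both groups and was not called, and Hsf5 had 7 counts in all. Transcript levels do not measure HSF1 activity, which depends on its release and phosphorylation. Of 10 further genes known as targets or partners of HSF1, 7 were lower and 3 higher. Among all genes tested 39.4% were called lower and 39.9% higher. Sqstm1, or p62, the receptor that brings aggregates to autophagy, rose most of the 10, at 1.52 (SE 0.030). Chosen after their values were seen, the polyubiquitin gene Ubb fell by 1.15, the segregase Vcp by 1.41 and the collagen chaperone Serpinh1 by 1.18, and P4ha1, a collagen prolyl hydroxylase, rose by 1.45.

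Zfand2a (ENSMUSG00000053581) rose more than any other tested chaperone gene with at least 100 normalized counts. It encodes AIRAP, an arsenite-inducible zinc finger protein that binds the proteasome, and is known as a target of HSF1. It had 702, 696 and 658 normalized counts in DMSO and 7619, 7394 and 7574 in P3FI-90, a change of 3.46 (SE 0.044), or 11.0-fold higher. No other chaperone gene with at least 100 normalized counts rose by more than 1 on the TMM scale, and its log2 fold change lay between 3.35 and 3.67 under all 15 other settings tried. Hspa1a and Hspa1b, which heat shock also induces, fell in the same libraries. The upstream sequence of Zfand2a is printed for comparison with that of Hspa1b above: bases -210 to -59, at chr5:139484550-139484701 of GRCm38.p6 on the minus strand, with the unit pair TTCTAGAA and the cAMP response element TGACGTCA in capitals, the latter searched only after the sequence had been read.
Zfand2a: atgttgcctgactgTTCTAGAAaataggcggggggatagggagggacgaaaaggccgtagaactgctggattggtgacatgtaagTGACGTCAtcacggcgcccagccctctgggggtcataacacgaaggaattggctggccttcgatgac
A cAMP response element was in a window of 2 of the 65 genes (3.08%), Zfand2a and Dnajc27, beside 3.64% of all tested genes with a window. The sequence of Zfand2a prompted this search, so its own match and call are not a result of it. Dnajc27 was called higher at 0.30, where 39.9% of all genes tested were called higher. Removal of the length and GC trend took Dnajc27 to 0.025 and out of the call. The search for 2 adjacent inverted units found 1 match in the window of Zfand2a and 1 in that of Hspa1b. Other arrangements of the units were not searched, so the 2 windows may differ in them. Whether these matches bear on the direction of either gene was not tested.

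The remaining names were mostly rare. Hsf2bp had 7 counts over the DMSO libraries and 71 over the P3FI-90 libraries and was called higher, and its exons overlap those of Rrp1b on the opposite strand. Hspa12b, a distant HSP70 known from endothelium, had 54.6, 45.8 and 22.4 normalized counts in DMSO and 21.5, 12.6 and 5.88 in P3FI-90, and its call was lost without DMSO replicate 1. Hspbap1, which binds small heat shock proteins, was called higher at 0.20, a call lost without DMSO replicate 3, without P3FI-90 replicate 1, with upper-quartile scaling and with the length and GC correction. All 3 were named after their values were seen.

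Per kilobase, treatment changed the order of the chaperone genes. In DMSO the order was Hsp90ab1 at 71785 normalized counts per kb, Hspa8 at 37981, Hsp90aa1 at 27401 and Hspd1 at 24011, followed by Cct5. In P3FI-90 it was Hsp90ab1 at 23276, Hsp90aa1 at 15227, Hspa9 at 13279.9, Hspd1 at 9029 and Cct5 at 8746, of which the last pair did not differ beyond their spread. Hspa8, second in DMSO, stood at 5277 per kb, within the spread of Stip1 at 5427 and Cct8 at 5424. Its ratio to Hsp90ab1 per kb was 0.536, 0.528 and 0.523 in DMSO and 0.23, 0.229 and 0.221 in P3FI-90.

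The 7 chaperone genes of the endoplasmic reticulum that the rule left out gave 2 rises (28.6%, beside 39.9% of all genes tested), 3 falls (42.9%, beside 39.4%) and 2 not called. Total counts gave 4 rises and 2 falls, and removal of the length and GC trend 2 rises and 5 falls. Dnajb9, or ERdj4, a target of the unfolded protein response, had the largest rise, 1.45 (SE 0.080), and Hsp90b1, or GRP94, the HSP90 of that compartment, the largest fall, -1.21 (SE 0.035), between the -0.85 of the cytosolic Hsp90aa1 and the -1.62 of Hsp90ab1. Hspa5, or BiP, its HSP70, named after its value was seen, fell by 0.27 on the log2 scale, where the cytosolic Hspa8 fell by 2.85.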

How the data were processed

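Libraries from 4T1 cells were prepared with an Illumina mRNA kit and sequenced on an Illumina instrument. The authors deposited whole-number read counts per gene, without normalization, and the submitters' processing notes name CASAVA, HISAT2, StringTie and GRCm39 without versions or roles. The counting tool, annotation and strandedness are not given in the sources used here. The 285 rows of assembled transcripts, with 0.483% to 0.556% of the counts of a library, were left out. In all 6 libraries more genes had 2 counts than 1, so read mates may have been counted separately.

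Genes were filtered with filterByExpr and scaled by TMM in edgeR 4.0.16 (R 4.3.3), and groups were compared with its quasi-likelihood test without covariates over 12288 genes, with Benjamini-Hochberg adjustment. The study names limma for its own comparison, and limma-voom was tried as an alternative. SE is the log2 fold change divided by the root of F. The code was tested on simulated data. Normalized counts per kb divide by the transcript with the longest coding sequence in GENCODE M21 (GRCm38), or for Cct6a, which has none there, by its longest transcript, which also gave overlaps and shared windows. Promoter windows came from RefSeq (GRCm38.p6).

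The members and lists were chosen with earlier results of these data known. Genes were named if among the 8 largest rises or falls with at least 100 normalized counts in a group, the 10 highest, the highest or most changed of a role, Hsf1 or Hsf2, or, of each further list, the 2 most changed; others are marked as chosen after their values were seen. A few genes that this rule or the lists hold are counted but not reported by name here. The alternatives were DESeq2 size factors, total counts, upper quartiles, limma-voom 3.58.1, the DESeq2 1.42.0 test, no filter, a stricter filter of 10 counts in each library, a replicate block and each of 6 libraries left out. Removal of a length and GC trend (splines, 4 degrees of freedom) was added after the data were seen.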

Additional observations from a re-analysis of the deposited data

How the results depend on the processing

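Across all alternatives 17 to 30 chaperone genes were called higher and 38 to 48 lower, beside 21 and 43 as reported. Leaving out a library gave 20 to 21 higher and 42 to 44 lower. With the replicate number as a block 22 were higher and 43 lower, Bag5 being the 1 call gained, and over all genes 4802 were higher and 4722 lower. Equally numbered libraries did not deviate together (correlations of -0.021, 0.015 and 0.0049), so the numbers were not taken to pair them. Scaling by total counts called 6177 of all genes higher and 3641 lower, beside 4908 and 4841. It turned Hspb8 to 0.015 and called Dnajb6 higher at 0.25, whereas upper quartiles put Dnajb6 at -0.0071 and the length and GC correction at -0.11. That correction gave 17 higher and 48 lower chaperone genes and lost 5 calls (Dnajc16, Dnajc18, Dnajc27, Hspa4l and Hspbap1) and gained 6 (Bag4, Bag5, Chordc1, Dnajb4, Dnajb6 and Dnajb14). The cause of these differences was not tested. The 31327094 to 37395732 counts per library leave wide intervals for members near 25 normalized counts, such as Dnajc6 at -0.23 (SE 0.58). The reported fold changes are relative to the other genes sampled, on the TMM scale, and those of the total-count setting to all counts. No spike-in was used here to set an absolute scale.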

Other observations

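Of the chaperone genes too low to test, 3 are given here, chosen after their counts were seen. Hspb7, a small heat shock protein known from heart and muscle, had 48, 2 and 5 counts in the DMSO libraries and 2, 12 and 0 in the P3FI-90 libraries. Cct6b, the testis form of a TRiC subunit, had 4, 2 and 2 counts in DMSO and 0, 21 and 0 in P3FI-90. Dnajb13, a J protein of sperm and cilia, had 0, 2 and 1 and then 7, 9 and 0. In each case the libraries of a group differed by more than the groups did.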
